A study of Mus musculus with 12 samples.

Results

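A set of 10 genes that tell epithelial from mesenchymal cells was followed in mouse tumors of MC38, a line of colon adenocarcinoma cells. They were 4 keratins of simple epithelia (Krt7, Krt8, Krt18 and Krt19), the adhesion molecules Epcam, Cdh1 and Cdh2, the filament protein Vim, and the repressors Zeb1 and Zeb2, 10 of the 15170 genes in the table. They were chosen by measured values: the FPKM of the keratins was close to 0 in 2 tumors, BG136 replicates 4 and 6, so the keratin values there, and any group difference they carry, are a description and not a finding. The question was which of the other genes were low or high in the same tumors. The mice had been injected intravenously with vehicle (6 libraries) or with BG136 (6 libraries), a soluble β-glucan from the brown alga Durvillaea antarctica given here alone. Per the labels the MC38 cells were wild type and the sampled material was a whole tumor, which holds host cells as well as MC38 cells. The sources used here do not give mouse strain, age, dose, schedule, number of animals or pooling. Since nothing in the labels ties each sample to an animal of its own, a p-value reflects only how far these samples spread, which may be technical.

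Keratins form the intermediate filaments of epithelial cells as obligate pairs of a type II chain (Krt7, Krt8) and a type I chain (Krt18, Krt19). Epithelial cells hold together through E-cadherin (Cdh1) and Epcam, whereas mesenchymal cells carry N-cadherin (Cdh2) and filaments of vimentin (Vim). In the change of state called epithelial-mesenchymal transition, the zinc finger factors Zeb1 and Zeb2 repress epithelial genes, Cdh1 among them, by binding E-box motifs in their promoters.

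The reads recovered per library numbered between 14828786 and 18125931, except in BG136 replicates 7 (33231037) and 9 (32956232). These 2 libraries differed by less than the sampling noise (chi-square of 0.285 per gene, against 7.88 to 57.4 in the other 29 pairs within groups) and were averaged as 1 sample, named replicate 7-9, which left 5 BG136 and 6 vehicle samples. Values are FPKM, reads per kilobase of gene scaled to library size. Levels compare between genes only as far as the gene lengths used hold. The values imply 33674 bases for Zeb1 and 9965 for Cdh2, whereas their longest coding transcripts (GENCODE vM21) have 5801 and 4843 bases. Krt7 went the other way, with 1586 bases implied and 4094 in its transcript. Against the label of colon adenocarcinoma cells, little that marks colon epithelium was found: the brush border gene Vil1 was at most 0.151 FPKM and the intestinal cadherin Cdh17 at most 0.233 FPKM in the 9 samples other than BG136 replicates 4 and 6, with 0.0382 and 0 for Vil1 and 0.143 and 0.0755 for Cdh17 in those 2. In bulk tumors, fewer cells of a type and less RNA per cell cannot be told apart.

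Promoters are shown for those of the 10 genes that were low together, other than Krt19, because the 2 repressors act on E-boxes. Promoters of 6 of the 10 genes were read from RefSeq (build GRCm38.p6, which differs from the build of the expression values). Krt19 and Cdh1 had no promoter in that source, and those of Zeb1 and Cdh2 were left out. The sequences therefore do not cover Cdh1, the target of the repressors named above. Each sequence runs 5′ to 3′ on the strand of the gene, from 250 bases before to 50 bases after the start, with the E-boxes CACCTG or CAGGTG in capitals. Krt8 lies at chr15:102004293-102004592 on the minus strand, Krt18 at chr15:102027966-102028265 on the plus strand, Krt7 at chr15:101412153-101412452 on the plus strand and Epcam at chr17:87635729-87636028 on the plus strand.
Krt8: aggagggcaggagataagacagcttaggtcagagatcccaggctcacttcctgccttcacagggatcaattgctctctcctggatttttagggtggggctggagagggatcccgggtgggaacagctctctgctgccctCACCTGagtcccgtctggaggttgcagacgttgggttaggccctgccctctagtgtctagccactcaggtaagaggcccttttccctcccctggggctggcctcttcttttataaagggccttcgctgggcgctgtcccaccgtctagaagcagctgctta
Krt18: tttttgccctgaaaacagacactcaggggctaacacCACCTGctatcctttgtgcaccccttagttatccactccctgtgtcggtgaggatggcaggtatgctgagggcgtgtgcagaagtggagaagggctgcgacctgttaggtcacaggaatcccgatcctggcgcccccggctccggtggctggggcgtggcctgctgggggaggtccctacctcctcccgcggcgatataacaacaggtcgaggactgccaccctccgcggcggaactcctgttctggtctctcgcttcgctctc
Krt7: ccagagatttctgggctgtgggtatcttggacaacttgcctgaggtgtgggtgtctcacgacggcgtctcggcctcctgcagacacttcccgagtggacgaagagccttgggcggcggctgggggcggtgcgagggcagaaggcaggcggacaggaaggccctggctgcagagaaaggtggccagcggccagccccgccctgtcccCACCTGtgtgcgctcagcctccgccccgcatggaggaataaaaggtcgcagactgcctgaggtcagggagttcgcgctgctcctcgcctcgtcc
Epcam: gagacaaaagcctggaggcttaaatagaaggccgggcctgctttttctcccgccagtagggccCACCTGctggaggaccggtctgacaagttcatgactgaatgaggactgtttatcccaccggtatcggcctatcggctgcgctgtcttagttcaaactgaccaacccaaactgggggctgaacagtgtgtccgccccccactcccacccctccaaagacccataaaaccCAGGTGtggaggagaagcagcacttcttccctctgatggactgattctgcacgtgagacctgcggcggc
The motif began 111 bases before the start in Krt8, 214 in Krt18, 44 in Krt7, and 187 and 19 in Epcam. These 4 promoters thus all held an E-box, as did 20.2% of the 32851 promoters of the same length in the table. The Vim promoter and the 4 Zeb2 promoters held 0. Among the other genes named below as nearest to the Krt18 profile, 5 had a promoter in that source. An E-box was found in 4 of them, and Fxyd3 held 0. Of the 4 promoters shown, those of Krt7 and Epcam held a GC box (GGGCGG or its complement CCGCCC, 35.7% of all promoters). The AP-1 motif TGANTCA, read on both strands, was in none of the 4 shown (7.81% of all promoters). No motif contains another, and a match is a description of the sequence, not a binding site.

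Krt7, Krt8 and Krt18 are on chromosome 15, with 2 RefSeq genes between Krt8 and Krt18, while Krt19 is on chromosome 11 and Epcam on chromosome 17. Krt8 (Entrez gene 16691), the type II chain that pairs with Krt18, was at 4.71, 7.02, 0, 0.140 and 1.32 FPKM in BG136 replicates 1, 2, 4, 6 and 7-9, and at 2.00, 3.52 and 6.67 FPKM (lowest, median, highest) in vehicle tumors. Krt18 (16668), its type I partner, was at 2.98, 7.42, 0, 0 and 1.27 FPKM in the same BG136 order and at 2.22, 3.35 and 7.59 FPKM in vehicle tumors. Both were therefore present in every vehicle tumor and in 3 BG136 tumors, and BG136 replicate 2 and vehicle replicate 1 were the highest for both. Krt19 (16669), a type I chain of ducts and of gut epithelium, was the most abundant of the 4, at 8.44, 11.9, 0.0841, 0.0889 and 3.89 FPKM in BG136 tumors against 5.73, 6.77 and 9.78 FPKM in vehicle tumors. Krt7 (110310), a type II chain of glandular and ductal epithelium, was the least abundant, at 1.51, 4.55, 0.0751, 0.0397 and 0.419 FPKM against 0.559, 1.30 and 2.11 FPKM. For all 4 keratins the BG136 samples lay on both sides of the vehicle range or reached into it, with replicate 7-9 below every vehicle sample and replicates 4 and 6 below replicate 7-9.

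**Figure D1:**
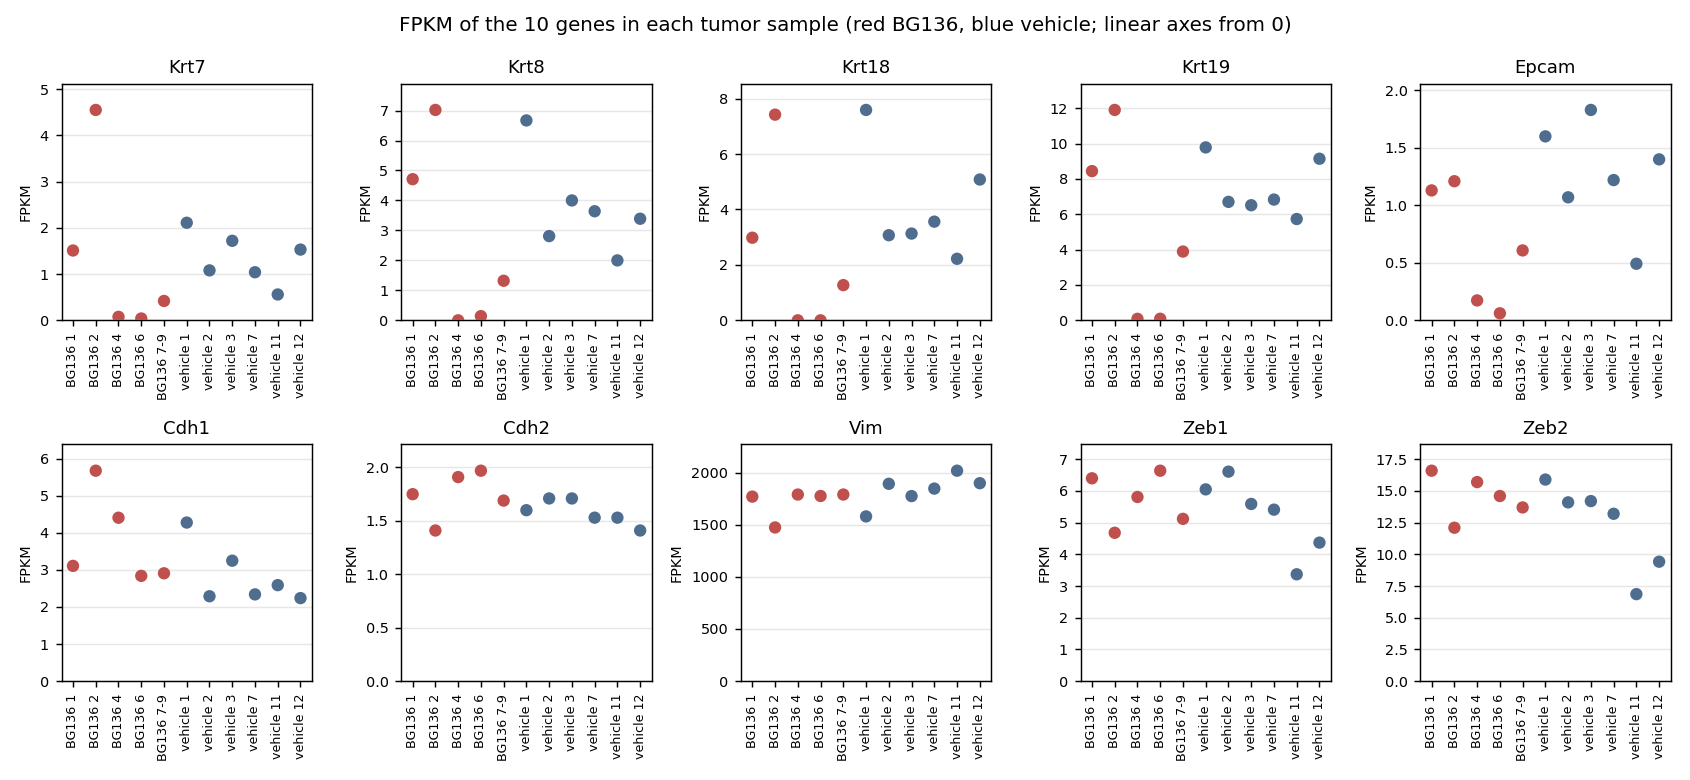
FPKM of the 10 genes in each tumor sample (y axis, linear from 0; red BG136, blue vehicle; each point is 1 sample, BG136 7-9 the mean of 2 libraries). The 4 keratins and Epcam are near 0 in BG136 replicates 4 and 6, where Cdh1 and Vim lie within the range of the other tumors, Zeb2 too, Zeb1 within it in replicate 4 and just above it in replicate 6, and Cdh2 above it in both.

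The low values in BG136 replicates 4 and 6 rest on a handful of reads. Krt18 had 0 reads in both, for which a floor of 3 reads allows up to 0.128 and 0.135 FPKM, so the lowest of the 9 other samples was at least 9.98-fold and 9.44-fold higher. Krt8 had 0 reads in replicate 4 (at least 13.4-fold below the lowest of the 9) and 4 reads in replicate 6. Krt19 had 2 reads in each library, with 95% exact Poisson intervals of 0.0102 to 0.304 and 0.0108 to 0.321 FPKM, both far under the lowest other value of 3.89 FPKM. Krt7 had 2 reads and 1 read, with intervals of 0.00910 to 0.271 and 0.00101 to 0.221 FPKM against a lowest other value of 0.419 FPKM. Intervals and floors cover counting error only. Reads of Krt8 are the least certain to assign: 26.9% of the 50-base stretches of its transcript also occur in the transcript of the pseudogene Krt8-ps (GENCODE vM21), compared with 0.72% for Krt18 and 0 for the other 8 genes.

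Where keratins were detected, the ratios between chains ranged less widely than their levels. Over the 9 other samples, the sum of the 4 keratins ran from 6.91 FPKM in BG136 replicate 7-9 to 30.8 FPKM in BG136 replicate 2, with a median of 15.4 FPKM. The ratio of Krt8 to Krt18 over the same samples was 0.668 to 1.58, that of Krt19 to Krt18 was 1.29 to 3.06, and that of type I to type II chains was 1.67 to 3.10. As for levels, the highest of the 9 was 5.96-fold the lowest for Krt18, 5.31-fold for Krt8, 10.9-fold for Krt7 and 3.04-fold for Krt19. In BG136 replicates 4 and 6 the keratin sum was 0.159 and 0.268 FPKM.

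Epcam and E-cadherin, both adhesion molecules of epithelia, parted in the 2 keratin-poor tumors. Epcam (17075), a homotypic adhesion molecule, was at 1.13, 1.21, 0.173, 0.0611 and 0.608 FPKM in BG136 replicates 1, 2, 4, 6 and 7-9 and at 0.492, 1.31 and 1.83 FPKM in vehicle tumors. It was lowest in the same 2 tumors as the keratins, with 6 reads and 2 reads and intervals of 0.0636 to 0.377 and 0.00740 to 0.221 FPKM, under the lowest other value of 0.492 FPKM in vehicle replicate 11. Cdh1 (12550), which joins epithelial cells at adherens junctions, was at 3.11, 5.68, 4.41, 2.84 and 2.91 FPKM in BG136 tumors and at 2.24, 2.46 and 4.28 FPKM in vehicle tumors. It was not low where the keratins were absent: replicate 4 had the second highest Cdh1 of all 11 samples and replicate 6 the fifth lowest. The ratio of Cdh1 to Epcam was accordingly 25.4 and 46.5 in these 2 tumors, against 1.60 to 5.26 in the 9 others.

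Cdh2 (12558), the cadherin of mesenchymal and neural cells, varied less than Cdh1, at 1.75, 1.41, 1.91, 1.97 and 1.69 FPKM in BG136 tumors and at 1.41, 1.57 and 1.71 FPKM in vehicle tumors. Replicates 4 and 6 were its 2 highest samples, 1.91 and 1.97 FPKM against at most 1.75 FPKM in the others, a small step beside the loss of keratin reads. Vim (22352), the filament protein of mesenchymal cells, was at 1771, 1475, 1791, 1777 and 1791 FPKM in BG136 tumors and at 1581, 1871 and 2020 FPKM in vehicle tumors. It was thus the most abundant of the 10 genes everywhere, 47.8 to 259 times the keratin sum in the 9 samples with keratins, and it was in the middle of its range in replicates 4 and 6. BG136 replicate 2, which had the most keratin, had the least Vim.

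The 2 repressors were at similar levels with and without keratins. Zeb1 (21417) was at 6.40, 4.68, 5.81, 6.64 and 5.12 FPKM in BG136 replicates 1, 2, 4, 6 and 7-9 and at 3.37, 5.50 and 6.61 FPKM in vehicle tumors. Zeb2 (24136) was at 16.6, 12.1, 15.7, 14.6 and 13.7 FPKM and at 6.86, 13.6 and 15.9 FPKM. The ratio of Zeb2 to Zeb1 stayed between 2.04 and 2.70 in all 11 samples, but its size depends on the gene lengths used. By reads, Zeb1 exceeded Zeb2 in every library, for example 3880 against 2869 in BG136 replicate 1. Replicate 6 had the highest Zeb1 of the 11 samples, at 6.64 FPKM beside 6.61 FPKM in vehicle replicate 2, and neither replicate was highest for Zeb2. The lowest samples for both were vehicle replicates 11 and 12, with 3.37 and 4.37 FPKM of Zeb1 and 6.86 and 9.42 FPKM of Zeb2. In these 2 libraries the longest 10% of tested genes were also low, with median deviations of -0.34 and -0.20 log2 units against -0.04 to 0.12 in the other samples. By the length that the FPKM values imply, Zeb1, Zeb2 and Cdh2 belong to that 10%. The part of gene length in the Zeb values was not tested.

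None of the 10 genes differed between BG136 and vehicle tumors past the threshold (adjusted p under 0.05, limma on log2(FPKM + 1), 5 against 6 samples). All 10 passed the filter, which asked for 1 FPKM or more in 6 or more of the 11 samples. Over the 11356 genes tested, limma called 0, which is 0% of genes, with 233 at an unadjusted p under 0.05, and limma-voom on the recovered reads also called 0, with 324. Differences below are BG136 minus vehicle on that log2 scale, which understates the change of low genes, and the adjusted p was 0.978 for each of the 10 genes.

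Epithelial genes had the lower BG136 means apart from Cdh1. Krt18 averaged 2.33 ± 3.09 FPKM (SD, n = 5) in BG136 and 4.11 ± 1.95 FPKM (SD, n = 6) in vehicle tumors, which is -1.03 on the log2 scale with a 95% interval of -2.08 to 0.03. Krt19 averaged 4.87 ± 5.20 against 7.45 ± 1.62 FPKM, a difference of -1.17 (-2.42 to 0.09), and Krt8 averaged 2.64 ± 3.10 against 3.75 ± 1.59 FPKM, a difference of -0.80 (-1.86 to 0.25). Krt7 averaged 1.32 ± 1.90 against 1.34 ± 0.555 FPKM, a difference of -0.30 (-1.10 to 0.51). The SD of each keratin in BG136 tumors exceeded its mean. Epcam averaged 0.637 ± 0.530 against 1.27 ± 0.466 FPKM, a difference of -0.51 (-0.96 to -0.05), the one interval of the 10 that left out 0 before adjustment over all genes; exact permutation of the group labels, two-sided, gave p = 0.0714. These differences rest on replicates 4 and 6: without them the values were 0.24 for Krt7, 0.057 for Krt8, -0.19 for Krt18, 0.013 for Krt19 and -0.18 for Epcam. In the same contrast all 9 tested adipocyte markers had lower BG136 means (median log2 difference -0.78, 9 at an unadjusted p under 0.05, 0 called by limma) and all 7 tested skeletal muscle markers higher ones (median 0.74, 0 called), and their part in the differences of the 10 genes was not tested.

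Cdh1 averaged 3.79 ± 1.23 FPKM in BG136 (SD, n = 5) and 2.83 ± 0.800 FPKM in vehicle tumors (SD, n = 6), a difference of 0.31 (-0.05 to 0.67; exact permutation p = 0.141). It was 0.33 without replicates 4 and 6. Cdh2 differed by 0.09 (-0.07 to 0.24; exact permutation p = 0.158) and Vim by -0.09 (-0.28 to 0.10; exact permutation p = 0.253). For Zeb1 the difference was 0.13 (-0.17 to 0.42) and for Zeb2 0.27 (-0.11 to 0.64), with exact permutation p = 0.446 and 0.251; without vehicle replicates 11 and 12 the Zeb1 value turned to -0.045 and the Zeb2 value fell to 0.013. In the authors' deposited table the q-values of the 10 genes for the same contrast ran from 0.931 (Epcam) to 0.987 (Krt7).

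**Figure D2:**
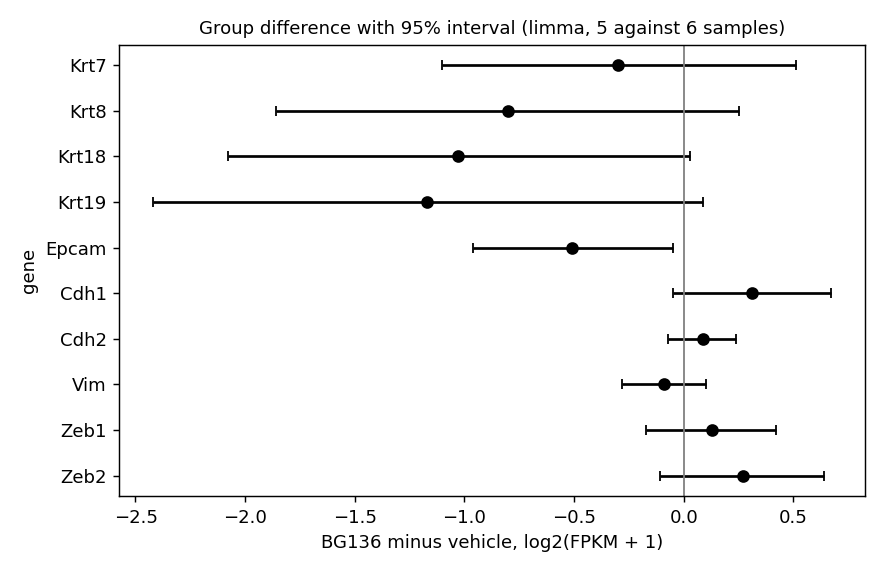
Difference between BG136 and vehicle tumors for each of the 10 genes (x axis, log2(FPKM + 1) units; points are limma estimates from 5 against 6 samples, bars their 95% intervals). The keratin intervals are wide and reach past 0, those of Cdh2 and Vim are narrow around 0, and that of Epcam ends at -0.05 before adjustment.

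Which other genes were low in the same tumors was then read from the whole table. Of the 11356 tested genes, 76 (0.669%) had both BG136 replicates 4 and 6 below all 9 other samples, among them 5 of the 10 genes, the 4 keratins and Epcam. For 164 genes (1.44%) both replicates were above all 9 others, among them Cdh2 as the only one of the 10. The keratins chose these libraries, so their share says nothing beyond the choice; of the other 6 genes, Epcam was below and Cdh2 above. Most of the 76 genes were low by little. With libraries at 0 reads set to their floor of 3 reads, the lowest of the 9 others was more than 3-fold above both replicates for 5 tested genes, namely the 4 keratins and the epidermal growth factor receptor ligand Areg (0.245 and 0.155 FPKM against at least 1.04). Epcam lay 2.84-fold below, the surface protein Ly6d 2.87-fold, and the secreted protein Wfdc2, with 0 reads in both libraries, at least 2.06-fold.

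The genes whose profile over the 11 samples was most like that of Krt18 were ranked by the root mean square difference of centred log2(FPKM + 0.1) values, among 11965 genes with FPKM of at least 1 in any sample. A flat profile would lie 2.11 log2 units from Krt18. Krt19 was nearest at 0.33, followed by Krt8 at 0.47 and Krt7 at 0.86. The next were Fxyd3, a regulator of the sodium pump (0.90), Wfdc2 (0.92), Areg (1.05), the tight junction claudin Cldn4 (1.07), Ly6d (1.10), the iron-binding secretory protein lactoferrin, Ltf (1.12), and Epcam (1.15). All 10 were lowest in BG136 replicates 4 and 6. Fxyd3 was at 0 and 0 FPKM against 0.363 to 1.32, Cldn4 at 0 and 0 against 0.227 to 1.23, and Ltf at 0.0434 and 0 against 0.262 to 1.73. Ly6d was at 0.862 and 0.0911 against 2.47 to 5.46 FPKM. Fxyd3, Cldn4 and Ltf were under the filter. For Fxyd3 a floor of 3 reads allows up to 0.341 and 0.360 FPKM, close to its lowest other value. Cdh1, Cdh2, Vim, Zeb1 and Zeb2 lay 2.16, 2.23, 2.14, 2.21 and 2.22 from Krt18, no nearer than a flat profile.

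**Figure D3:**
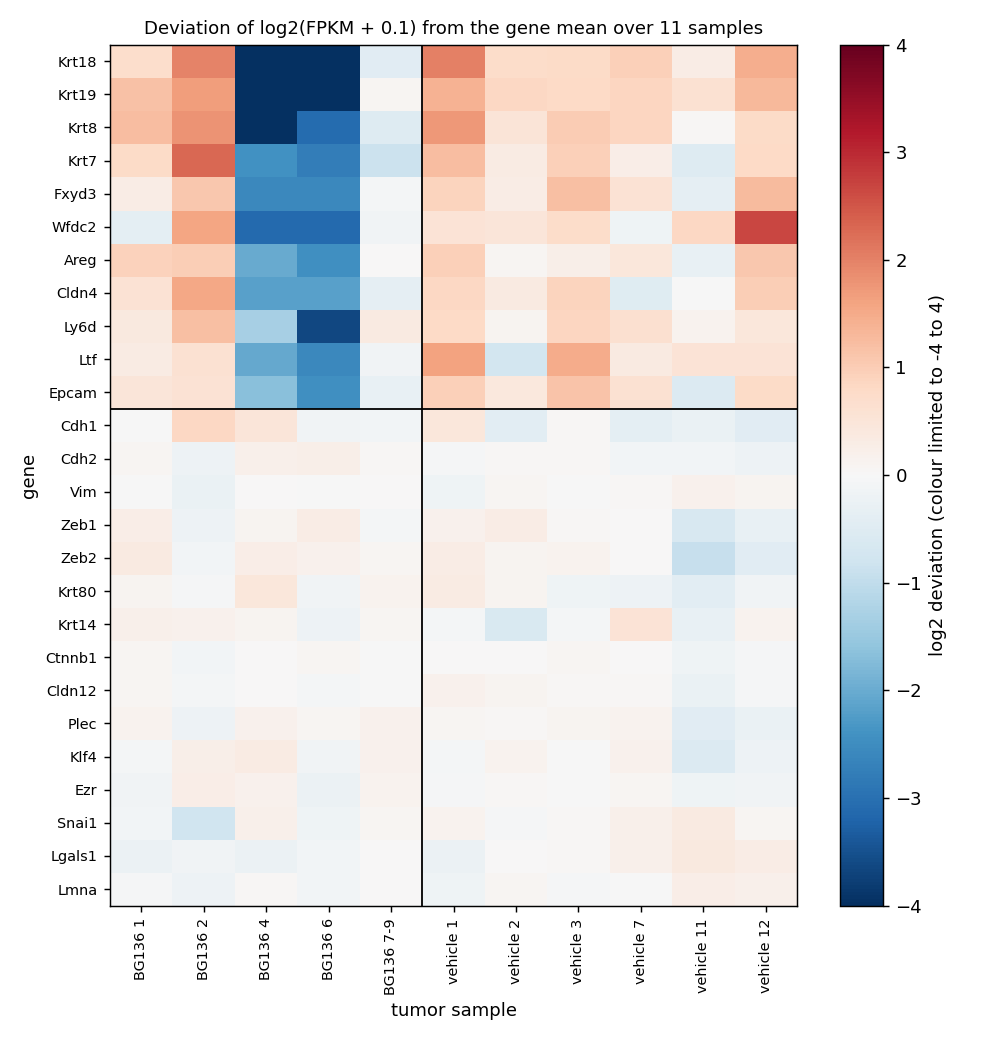
Deviation of log2(FPKM + 0.1) from each gene's mean over 11 samples (rows are genes, columns tumor samples; blue below, red above the mean, with the darkest colours capped). Above the line stand Krt18 and the 10 genes nearest to it, which are blue in BG136 replicates 4 and 6. Below it stand the other 5 of the 10 genes, which stay near white there. So does the most abundant gene of each other list of keratins, epithelial genes, mesenchymal genes or intermediate filaments. The lists of cell type markers, milk protein genes and mammary gland genes are not drawn.

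Against the Krt18 profile with its sign turned, the nearest genes were much further away, from 1.69 to 1.86. They were Entpd4b, LOC115489748, Vtn, Nxf3, Scara5, Chil3, Itgae, Trim43b, Gchfr and Ldb3. Chil3, a chitinase-like protein of macrophages, was at 22.9 and 30.8 FPKM in replicates 4 and 6 but also at 21.7 FPKM in vehicle replicate 1, a keratin-rich tumor. Scara5, a scavenger receptor for ferritin, was at 7.16 and 3.78 FPKM against 1.19 to 4.47 FPKM. Each of the 10 genes lay farther from the turned profile than Epcam, the last of the 10 like genes, lay from Krt18.

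Keratins of other epithelia did not share the pattern where they were well detected. Krt14, the type I keratin of basal keratinocytes, was at 6.89 and 5.53 FPKM in BG136 replicates 4 and 6 against 4.07 to 9.24 FPKM in the 9 others. Krt16, induced in stressed epidermis, was at 2.55 and 1.69 FPKM against 1.42 to 2.97, Krt10 of the upper epidermis at 1.35 and 0.894 against 0.657 to 1.74, and Krt80 at 2.29 and 1.48 against 1.18 to 2.07 FPKM. These 4 were the other keratins that reached 1 FPKM in any sample, and in none of them were both replicates outside the range of the others. At lower levels Krt5, the type II partner of Krt14, was at 0 in both replicates against 0.171 to 0.948 FPKM, and Krt17 was at 0 in both against 0.0472 to 0.378 FPKM.

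Lists of epithelial and mesenchymal genes were then read for the same pattern. Without the filter on low values, 168 of all 15170 genes (1.11%) had both replicates below the 9 others, and many of these rest on a few reads. Of the 11 adherens junction genes (10 tested, 7 with a higher and 3 with a lower BG136 mean, 0 called, median log2 difference 0.04), Epcam was the one gene below the others in both replicates. The catenins that link cadherins to actin were steady, with Ctnnb1 at 85.9 and 90.4 FPKM against 76.6 to 91.1 and Ctnna1 at 86.7 and 81.6 against 72.0 to 86.5 FPKM. Of 16 tight junction genes (5 tested, 4 higher and 1 lower, 0 called, median 0.13), 0 of the tested genes were below in both replicates, but 4 of the 16 were when genes under the filter are counted, namely Cldn3, Cldn4, Cldn7 and the junction plaque protein Cgn. Cldn3 was at 0 and 0 FPKM against 0.0502 to 1.01 and Cldn7 at 0.0410 and 0 against 0.0416 to 0.497, while the abundant Cldn12 (18.6 and 17.4 against 15.4 to 20.8) and F11r (14.0 and 9.51 against 9.01 to 14.3) were not low. Over all tested genes the median log2 difference was 0.02.

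Of 11 desmosome and linker genes, 4 were tested (3 higher, 1 lower, 0 called, median 0.11), and the abundant linker Plec was at 73.5 and 68.2 FPKM against 47.0 to 73.3. Under the filter, 1 of the 11 was below in both replicates, the desmosomal plaque protein Dsp at 0 and 0.0169 FPKM against 0.0344 to 0.283. Of the 18 epithelial regulators 11 were in the table and 2 tested (1 higher, 1 lower, 0 called). Klf4 was at 24.0 and 17.1 FPKM against 12.8 to 22.4. Under the filter, 2 of the 11 were below in both replicates: the epithelial splicing factor Esrp2 at 0 and 0.0309 FPKM against 0.0496 to 0.128, and the pioneer factor Foxa1 at 0.313 and 0.318 against 0.382 to 0.994 FPKM. Of 12 apical and polarity genes 4 were tested (3 higher, 1 lower, 0 called, median 0.05), and the membrane linker Ezr was at 34.1 and 25.6 FPKM against 27.2 to 36.9. Under the filter, 2 of the 12 were below the others in both replicates, among them Lad1 of the basement membrane zone (0.299 and 0.295 against 0.371 to 0.687 FPKM).

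Mesenchymal genes ranged from low to very abundant levels. Of 12 transcription factors of epithelial-mesenchymal transition, 11 were tested (8 higher, 3 lower, 0 called, median 0.05) and 0 had both replicates below or above the 9 others. Snai1, a repressor of Cdh1, was at 73.0 and 56.1 FPKM against 36.4 to 80.2, and Twist1 at 27.7 and 33.5 against 28.7 to 42.1 FPKM. Of 18 genes of the mesenchymal state, all tested (9 higher, 9 lower, 0 called, median -0.01), Cdh2 alone had both replicates above the others. The galectin Lgals1 was at 2651 and 2888 FPKM against 2632 to 4117, and the matrix protein Fn1 at 742 and 1287 against 371 to 1407 FPKM. Of the other intermediate filaments 5 were tested (2 higher, 3 lower, 0 called, median -0.01), and the nuclear lamin Lmna was at 175 and 156 FPKM against 146 to 203.

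Markers of other cell types were set beside the pattern. The summed FPKM of the 13 fibroblast and smooth muscle markers was 1715 and 2077 in BG136 replicates 4 and 6 against 1168 to 2293 in the 9 others, that of 10 macrophage markers 2909 and 2126 against 2425 to 3273, and that of 8 proliferation genes 595 and 553 against 532 to 665. The 7 of 8 T cell markers in the table summed to 102 and 36.2 FPKM against 64.5 to 125. Replicate 6 thus lay below the other tumors for macrophage and T cell markers, and by little for endothelial markers (73.3 against at least 74.4 FPKM). Replicate 4 did not for any of these. Sums were 98.4 and 73.3 FPKM against 74.4 to 99.4 for 8 endothelial markers, 207 and 29.2 against 5.27 to 315 for 10 skeletal muscle markers, 52.2 and 107 against 46.9 to 210 for 10 adipocyte markers, and 23.9 and 21.3 against 18.8 to 43.4 for 5 erythroid genes. The smooth muscle gene Tagln was the one tested marker outside the keratins that was below the others in both replicates. For keratinocytes and skin 5 of 12 markers were in the table, with sums of 8.72 and 7.37 FPKM against 6.62 to 11.6 and Krt5 at 0 in both. For mesothelium 4 of 9 were in the table, 3 of them keratins of the 10 genes, so the sums of 1.29 and 1.37 against 8.14 to 28.4 FPKM repeat the keratin values. Milk protein genes were a list added after the values were seen. Csn3, Ltf and Wfdc18, the 3 of 12 in the table, summed to 0.173 and 0.334 FPKM against 1.65 to 4.35 FPKM. They ranked 14, 9 and 12 among the genes nearest to the Krt18 profile, so their low sum repeats that ranking and adds no support to it. A list of 7 mammary gland receptors and regulators was also added after the values were seen. It summed to 4.18 and 4.45 FPKM against 4.38 to 8.64. Areg, Foxa1 and the prolactin receptor Prlr were below in both replicates, but the estrogen receptor Esr1 was at 1.36 and 2.02 FPKM against 0.755 to 1.82. Areg, at 0.245 and 0.155 FPKM against 1.04 to 2.81, ranked 6 among the genes nearest to the Krt18 profile. Its part of the low sum therefore repeats that ranking and adds no support to it. The part of any of these cell types in the keratin pattern was not tested.

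Whether the genes varied together among the 9 tumors with keratins was asked with correlations against Krt18 on log2(FPKM + 1), with exact permutation p-values adjusted over 9 relations. Krt19 followed Krt18 most closely (r = 0.94, permutation p = 0.000212, adjusted p = 0.00191; rho = 0.87, permutation p = 0.00451, adjusted p = 0.0372), and r was 0.92 without BG136 replicate 2 and vehicle replicate 1, the samples farthest from the median of Krt18. Krt8 gave r = 0.90 (permutation p = 0.00179, adjusted p = 0.00804), rho = 0.75 (permutation p = 0.0255, adjusted p = 0.0574) and r = 0.76 without those 2 samples. Krt7 gave r = 0.86 (permutation p = 0.00287, adjusted p = 0.00861), rho = 0.83 (permutation p = 0.00827, adjusted p = 0.0372) and r = 0.80 without them. The 3 keratins thus varied with Krt18 also in tumors of ordinary keratin level, within vehicle and BG136 samples pooled, and the labels give no batch to split by.

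Epcam did not pass after adjustment (r = 0.66, permutation p = 0.0499, adjusted p = 0.0898; rho = 0.75, permutation p = 0.0255, adjusted p = 0.0574), with r = 0.73 without the same 2 samples. Cdh1 gave r = 0.59 (permutation p = 0.0963, adjusted p = 0.144) and rho = 0.30 (permutation p = 0.437, adjusted p = 0.561), and its r was -0.46 without those samples, so the positive value rests on those samples at this pseudocount. Vim gave r = -0.67 (permutation p = 0.0454, adjusted p = 0.0898) and rho = -0.45 (permutation p = 0.230, adjusted p = 0.345), with r = 0.12 without them, so at this pseudocount its relation too rests on BG136 replicate 2 and vehicle replicate 1. With a pseudocount of 0.1 the 2 farthest samples were vehicle replicate 1 and BG136 replicate 7-9, and without those r was 0.59 for Cdh1, -0.78 for Vim and 0.47 for Epcam, so for these 3 genes r depended on which samples were left out. Cdh2 had r = -0.56 (permutation p = 0.122, adjusted p = 0.157) and rho = -0.45 (permutation p = 0.230, adjusted p = 0.345), with r = -0.51 without them. Zeb1 and Zeb2 had r = 0.11 and 0.13 (permutation p = 0.791 and 0.744, adjusted p = 0.791 for both) and rho = 0.03 for both (permutation p = 0.948, adjusted p = 0.948), with r = 0.09 and -0.07 without them.

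**Figure D4:**
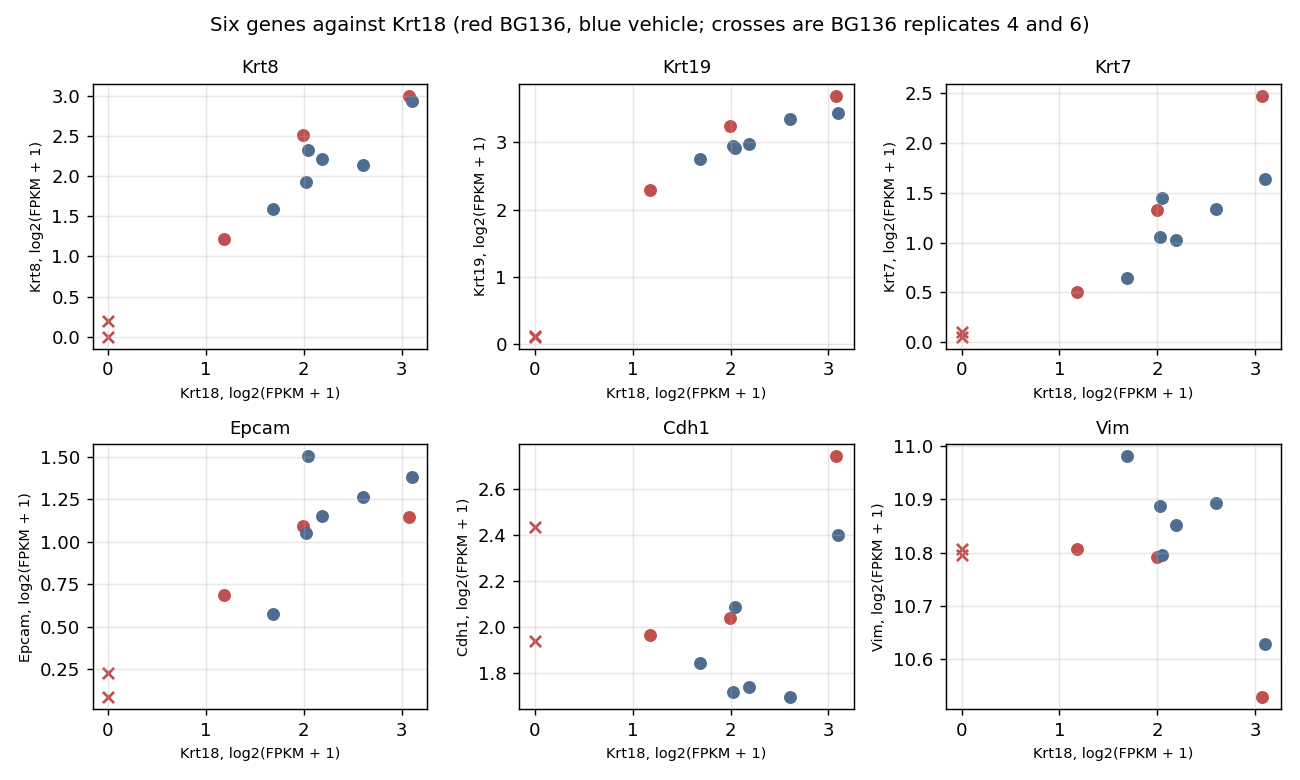
Each of 6 genes (y axis) against Krt18 (x axis), both in log2(FPKM + 1); red points are BG136, blue vehicle samples, and crosses are BG136 replicates 4 and 6, which the correlations leave out. Krt8, Krt19 and Krt7 climb with Krt18 through the 9 points (r of 0.90, 0.94 and 0.86), and in the Cdh1 and Vim panels the 2 samples with the most Krt18 stand apart from the rest.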

How the data were processed

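The labels describe stranded poly(A) libraries from total RNA of MC38 tumors, 6 per group. The authors deposited 1 table whose expression columns hold FPKM per library (the unit was read from the values). The tools named, per the submitters' processing notes, are Cufflinks, DESeq, HISAT2, HTSeq and Trimmomatic, and the build is GRCm39; their versions and roles were not given in the sources used here. Other columns that the authors deposited are base means, a signal averaged over libraries, together with the contrast of BG136 against vehicle as fold change (linear and log2), p-value and q-value.

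Whole reads were recovered from the FPKM values and the deposited base means; 100% lay within 0.1 of a whole number. BG136 replicates 7 and 9 were averaged as 1 sample. Values were fitted as log2(FPKM + 1) with limma 3.58.1 (R 4.3.3), mean-variance trend, two-sided. Benjamini-Hochberg adjustment was over 11356 genes that reached 1 FPKM in 6 or more samples. As a check of the code, the fit was run on simulated counts with the same spread set for all genes. That run does not show which differences the fit could find in these samples. Promoter sequences came from RefSeq (GRCm38.p6). Named were the 10 genes, other keratins of at least 1 FPKM in any sample, tested list genes outside the range of the 9 others in both BG136 replicates 4 and 6, up to 4 abundant examples per list, and the 10 genes nearest to the Krt18 profile in each direction. Other low genes (Krt5, Krt17, Cldn3, Cldn7, Cgn, Dsp, Esrp2, Foxa1, Lad1, Vil1, Cdh17, Csn3, Wfdc18, Prlr and Esr1) were picked after their values were seen. The 10 genes and all lists were chosen with earlier results of these data known. Alternatives were a pseudocount of 0.1, no filter, median-of-ratios scaling, voom on recovered reads, all 12 libraries, single samples left out, and a replicate block. Some further genes and 1 gene list are not reported here.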

Additional observations from a re-analysis of the deposited data

Results flagged for a closer look

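Single samples stood far from the rest of their group for 5 genes of the Krt18 comparison or its opposite and for Vim. In all, 7 of 52 groups were marked. A chance rate of about 1 in 20 does not apply to this count. The marked genes other than Vim were picked by their values in the same samples. Vim was at 1475 FPKM in BG136 replicate 2, below the 1771 to 1791 FPKM of the other BG136 samples. Wfdc2 was at 2.47 FPKM in BG136 replicate 2 against 0 to 0.682 FPKM in the other BG136 samples, and at 5.30 FPKM in vehicle replicate 12 against 0.662 to 1.43 FPKM in the other vehicle samples. Nxf3 was at 2.30 FPKM in BG136 replicate 6 against 0.668 to 0.911 FPKM, and Ldb3 at 1.32 FPKM in BG136 replicate 4 against 0.303 to 0.465 FPKM. Trim43b was at 0.565 FPKM in vehicle replicate 3 against 0.252 to 0.358 FPKM, and Gchfr at 3.08 FPKM in vehicle replicate 7 against 1.03 to 1.75 FPKM.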

How the results depend on the processing

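The count of genes past the threshold was 0 in the main analysis and under all 20 alternatives, with 150 to 474 genes at an unadjusted p under 0.05. Of 200 values (10 genes under 20 alternatives) 190 kept their direction and 10 changed sign. Without BG136 replicates 4 and 6, Krt7 became 0.24, Krt8 0.057 and Krt19 0.013. In the 6 samples whose numbers 1, 2 and 7 occur in both groups, Krt7 became 0.20, Zeb1 -0.14 and Zeb2 -0.03, both with a replicate block and without it. Without vehicle replicates 11 and 12, an alternative chosen after seeing the data as was the unblocked fit of those 6 samples, Zeb1 became -0.045 and Zeb2, with its sign kept, 0.013. The cause was not tested. Same-numbered samples deviated together with r of 0.41, -0.24 and 0.19, against -0.61 to 0.47 for samples of unlike number. With so few samples, centred within each group, these values cannot tell whether same-numbered samples were paired. The replicate block gave 0 calls and 285 unadjusted, against 180 without the block. Leaving out 1 sample in turn gave -1.48 to -0.71 for Krt18, -1.62 to -0.72 for Krt19, -1.21 to -0.46 for Krt8, -0.69 to -0.088 for Krt7, -0.63 to -0.37 for Epcam, 0.18 to 0.41 for Cdh1, 0.059 to 0.13 for Cdh2, -0.14 to -0.039 for Vim, 0.027 to 0.19 for Zeb1 and 0.12 to 0.34 for Zeb2. A pseudocount of 0.1 widened the low genes, to -2.29 for Krt18, -2.12 for Krt19, -1.81 for Krt8, -1.22 for Epcam and -1.10 for Krt7. With that pseudocount the r with Krt18 over 9 samples was 0.94 for Krt19, 0.90 for Krt8 and 0.89 for Krt7.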

Other observations

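The genes nearest to the profile of Cdh1 were looked up after its values had been seen. By the root mean square difference of centred log2 values, the nearest of 11965 genes were Il1rl2, a receptor of interleukin 36 (0.15), Sh2d5 (0.20), and Fcgr2b, an inhibitory Fc receptor of myeloid and B cells (0.22), where a flat profile lies 0.40 away. Il1rl2 was at 1.55, 2.58, 1.67, 1.27 and 1.40 FPKM in BG136 replicates 1, 2, 4, 6 and 7-9. Fcgr2b was at 90.7, 153, 119, 80.2 and 96.4 FPKM in the same order, with the highest of all 11 samples in BG136 replicate 2, as for Cdh1. The next in order were Tmem37 (0.22), Snx32 (0.23) and Ms4a4a, a surface protein of macrophages (0.24). Ms4a4a was at 14.1, 32.8, 16.4, 16.2 and 11.9 FPKM. These neighbours were picked by likeness over the same samples and carry no test.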
